A study of Mus musculus with 10 samples.

Results

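The comparison described here set the replicate 3 libraries of cardiac mesoderm (CM) against those of replicates 1 and 2. Members were taken by the replicate number in the sample titles, which gave 2 libraries of replicate 3 (1 of Foxa2+ CM and 1 of Foxa2- CM) and 4 libraries of replicates 1 and 2, out of 10 libraries in the series. All were RNAseq libraries of sorted cells differentiated from 1 mouse embryonic stem cell (mESC) line, Foxa2-hCD4, in which a truncated human CD4 is expressed from the Foxa2 locus and serves as a surface tag for Foxa2. The 6 CM libraries came from embryoid bodies exposed to Activin A at 8 ng/ml, VEGF at 5 ng/ml and BMP4 at 1 ng/ml and collected at day 5, from which Kdr+Pdgfra+ cells were sorted as hCD4+ (Foxa2+ CM) or hCD4- (Foxa2- CM). Before differentiation the cells were kept in the 2i-type medium named in the labels (SF-ES with PD, Lif and CHIR), and no group carried any other allele or treatment. The remaining libraries, used here only as reference levels, were 2 of endoderm made with Activin A at 75 ng/ml and 2 labelled Flk1+ high, which are the Kdr+ haematopoietic mesoderm of the study.

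Neither the labels nor the methods say whether replicate 3 was a separate differentiation run, and the replicate number, the culture, the sort and the library preparation cannot be told apart. The deposited files number the CM libraries 1 to 4 for replicates 1 and 2, and 7 and 8 for replicate 3. If the number marks a run, the comparison holds 1 run against 2, and the p-values below measure only the spread between these libraries. The question the comparison addresses is how far Kdr+Pdgfra+ mesoderm obtained with 1 protocol varies between replicates, in both sorted groups at once.

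Day 5 of such a culture corresponds to mesoderm just after gastrulation. Cells leave the primitive streak under Nodal, Wnt and FGF signalling, lose epiblast and streak transcription factors such as Lhx1 and Mesp1, and take up fates in lateral plate mesoderm. Kdr+ mesoderm is a shared source of heart, endothelium and primitive blood, and Tal1, Etv2, Gata2 and Runx1 mark the blood and vessel branch. Hox genes are switched on in sequence along each cluster as mesoderm forms, so that early mesoderm holds mostly 3' members and later or more posterior mesoderm also 5' members.

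The CM libraries held between 12616900 and 17470126 counts on genes, with 17470126 and 17287087 in the replicate 3 libraries of Foxa2+ and Foxa2- CM. At these depths 3 counts correspond to between 0.172 and 0.238 CPM, the normalised count in which levels are given throughout (library-scaled, not corrected for gene length). Of the gate genes, Kdr lay between 354 and 440.2 CPM and Pdgfra between 201 and 306 CPM in the 6 libraries, and neither was called different in replicate 3 (log2 difference 0.16 ± 0.08 SE, adjusted p = 0.261, and 0.03 ± 0.09 SE, adjusted p = 0.853). Foxa2, which encodes the forkhead factor behind the hCD4 gate, was at 20.0, 16.0 and 3.50 CPM in Foxa2+ CM replicates 1, 2 and 3 and at 2.54, 0.873 and 0.903 CPM in Foxa2- CM replicates 1, 2 and 3. The replicate 3 pair therefore kept the direction set by the sort, but its Foxa2+ library was lower than the other Foxa2+ libraries. The fitted difference was -2.01 ± 0.35 SE (adjusted p = 0.00323), and without the Foxa2+ replicate 3 library it was no longer called (log2 difference -0.95, adjusted p = 0.222), nor was it called by DESeq2 (-1.65, adjusted p = 0.0986).

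Across 15284 genes tested, 1471 were called at an adjusted p under 0.05, or 9.62% of the genes tested. Of these, 1006 were higher in replicate 3 (6.58%) and 465 were lower (3.04%), and 422 differed by at least 2-fold. In 1459 of the 1471 genes the replicate 3 library lay beyond both other libraries in each sorted group. That position nearly follows from the call, so where it is given below for called genes it is no separate evidence. By the same kind of fit, replicate 1 against replicate 2 gave 0 calls with edgeR, with 1010 genes at an unadjusted p under 0.05 and 3 calls with DESeq2. The 2 contrasts do not have the same number of libraries on each side, so their counts are not like for like. Leaving out 1 library of replicates 1 or 2 moved the 1471 calls to 968 without Foxa2+ replicate 1 and 2751 without Foxa2+ replicate 2. Without Foxa2- replicates 1 and 2 in turn they became 722 and 790. Leaving out Foxa2- replicate 3 lowered the count and leaving out Foxa2+ replicate 3 raised it, and each left 1 library of replicate 3. A fit of all 10 libraries, in which endoderm and Flk1+ high add to the spread, called 96 genes, and a fit without the sorted group as a term called 12.

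The same ordering appeared in the distances between whole profiles. Euclidean distance over log2 CPM of the tested genes was 37.4 between Foxa2+ replicates 1 and 2, against 54.1 and 43.3 from these to replicate 3. In Foxa2- CM it was 37.5 between replicates 1 and 2, against 61.7 and 57.9 to replicate 3. Foxa2- replicate 3 lay closer to Foxa2+ replicate 3 (54.7) than to either other Foxa2- library, whereas the distance across the sort was 66.8 in replicate 1 and 69.0 in replicate 2. Replicate 3 stood farther from the other libraries of its group by 16.8 units on average, with an exact one-sided permutation p of 0.111, the smallest that the 9 possible choices of 1 library per group allow.

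**Figure D1:**
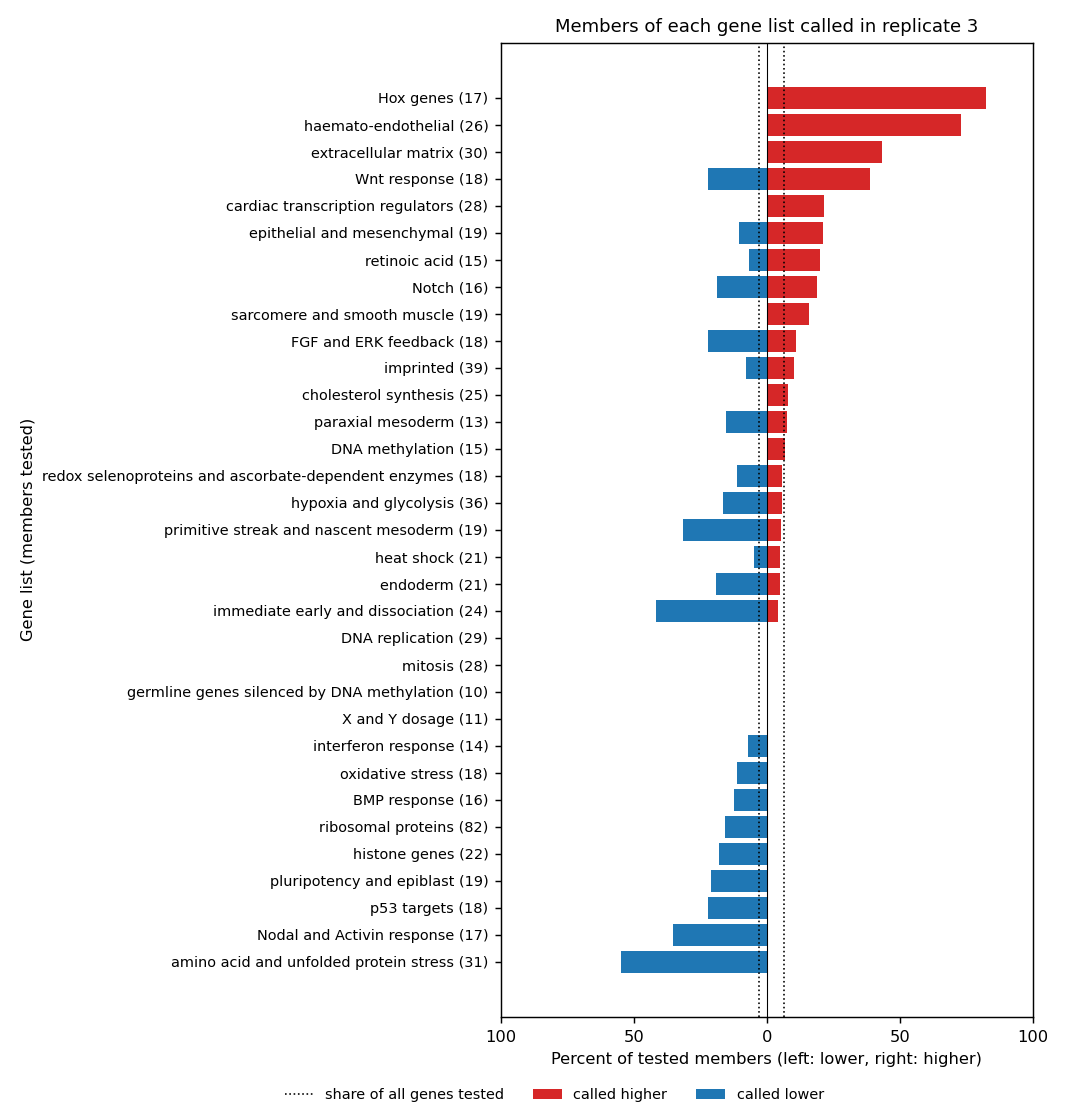
Percent of the tested members of each gene list called higher (red, to the right) or lower (blue, to the left) in replicate 3, with the number tested in brackets and dotted lines at the shares over all genes tested (6.58% higher, 3.04% lower). Hox and haemato-endothelial genes reach furthest to the right, amino acid and unfolded protein stress genes furthest to the left, and lists with no bar hold no called member. The lists were chosen with earlier results of these data known, so the shares are a description.

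Genes of the blood and endothelial branch rose in replicate 3. Of 30 genes listed for it, 26 passed the filter on low counts, and 19 of these were called higher and 0 lower, against 6.58% and 3.04% of all genes. The median log2 difference of the 26 was 1.11, beside 0.00 for all genes. The count of 19 moved in both directions when single libraries were left out. In all 19 the replicate 3 library was the highest of its sorted group, as it was for nearly all genes called higher.

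Among the receptors, Tie1, an orphan partner of the angiopoietin receptor in endothelium (chr4:118471191-118490061), was at 0.804, 1.04 and 3.38 CPM in Foxa2+ replicates 1, 2 and 3 and at 0.248, 0.397 and 18.5 CPM in Foxa2- replicates 1, 2 and 3. It headed the named rises, which were drawn from genes averaging 50 counts or more (log2 difference 3.86 ± 0.53 SE, adjusted p = 0.000813). Tek, the angiopoietin receptor itself, was at 3.66, 7.64 and 14.9 CPM in Foxa2+ CM and at 1.92, 3.25 and 30.6 CPM in Foxa2- CM (2.48 ± 0.38 SE, adjusted p = 0.00166). Cdh5, the VE-cadherin of endothelial junctions, was at 4.53, 7.81 and 13.6 CPM and at 2.85, 1.98 and 43.4 CPM in the same order (2.66 ± 0.46 SE, adjusted p = 0.00309). For each of these genes the highest CM library was Foxa2- replicate 3 and the second highest was Foxa2+ replicate 3. All remained far below the Flk1+ high libraries, where Tie1 was at 78.4 and 162, Tek at 135 and 245 and Cdh5 at 158 and 275 CPM.

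Transcription factors of the same branch rose with smaller errors. Tal1, which is required for blood formation (chr4:115056426-115071755), was at 54.4, 58.1 and 112 CPM in Foxa2+ replicates 1, 2 and 3 and at 45.5, 34.9 and 101 CPM in Foxa2- CM, a log2 difference of 1.17 ± 0.10 SE (adjusted p = 3.97e-05). Sox7, a SoxF factor of early endothelium, was at 7.97, 15.2 and 42.6 CPM and at 8.42, 9.53 and 43.6 CPM (2.08 ± 0.18 SE, adjusted p = 4.40e-05). Fli1, an ETS factor, rose by 1.30 on the log2 scale and Runx1, needed for definitive blood, by 0.80, from 90.1 and 124 to 164 CPM in Foxa2+ CM and from 67.5 and 81.9 to 144 CPM in Foxa2- CM. In these genes both replicate 3 libraries were above all 4 others. Gata2 and Hhex made the smallest called rises, 0.46 and 0.59. Not all factors of the branch were called. Etv2 was at 126, 104 and 97.6 CPM in Foxa2+ CM and at 106, 113 and 91.1 CPM in Foxa2- CM (-0.24, adjusted p = 0.0886), and Lmo2 gave -0.07 (adjusted p = 0.734).

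Blood cell genes were low throughout but also moved. Itga2b, the CD41 antigen of the first blood progenitors, was at 4.53, 6.37 and 10.6 CPM in Foxa2+ CM and at 5.39, 5.32 and 20.5 CPM in Foxa2- CM (1.48 ± 0.21 SE, adjusted p = 0.00102). Gata1, the erythroid GATA factor, was at 1.75, 2.08 and 4.0 CPM and at 0.310, 1.19 and 6.15 CPM (1.98 ± 0.40 SE, adjusted p = 0.00785). Of the embryonic globins, Hba-x was at 0 in the 6 CM libraries, and Hbb-bh1 was below 0.5 CPM in all of them but Foxa2- replicate 3, where it was at 3.22 CPM. Outside the list, Ikzf1, a zinc finger factor of blood lineages, was the eighth largest rise, at 2.78, 4.11 and 9.14 CPM in Foxa2+ CM and 0.929, 1.91 and 14.7 CPM in Foxa2- CM (2.34 ± 0.35 SE, adjusted p = 0.00138). Stat5b, a cytokine signal transducer, was at 32.4, 41.0 and 74.6 CPM and at 25.6, 25.4 and 63.8 CPM (1.18 ± 0.10 SE, adjusted p = 3.97e-05).

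**Figure D2:**
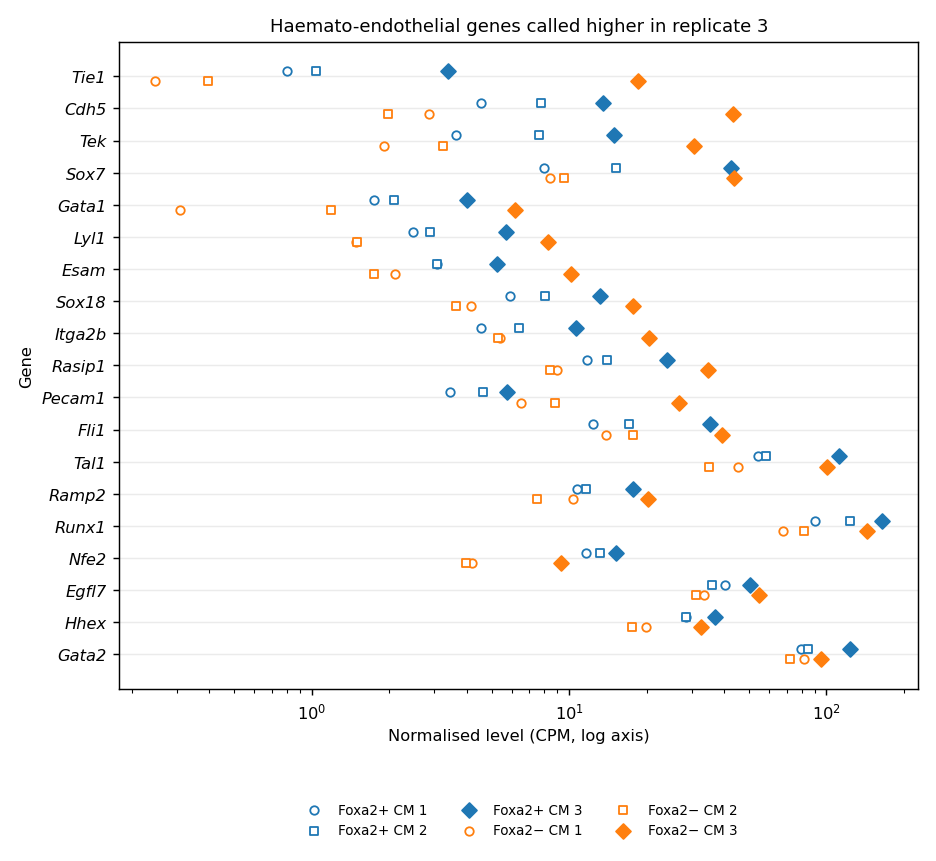
Normalised level (CPM, log axis) of the 19 haemato-endothelial genes called higher in replicate 3, in each of the 6 CM libraries, with Foxa2+ CM in blue and Foxa2- CM in orange, open symbols for replicates 1 and 2 and filled diamonds for replicate 3. In every row the filled diamonds lie to the right of the open symbols of their own colour, and the gap is widest for Tie1, Cdh5 and Tek in Foxa2- CM.

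In sorted bulk RNA, more cells of a type and more RNA per cell cannot be told apart. Summed over 12 haemato-endothelial markers, the level was 482, 495 and 628 CPM in Foxa2+ replicates 1, 2 and 3, 371, 373 and 624 CPM in Foxa2- replicates 1, 2 and 3, and 1542 and 1953 CPM in the Flk1+ high libraries. These 12 are members of the list above, so they are not a separate readout. Of 10 tested markers 8 were called higher, and 1 marker, Hba-x, was at 0 in both replicate 3 libraries. Over all genes tested 6.58% were called higher and 3.04% lower, the shares to set beside each marker count here. The 10 endoderm markers summed to 113, 118 and 95.9 CPM and to 82.0, 76.0 and 87.0 CPM, against 1433 and 1489 CPM in endoderm. Of 9 tested markers 0 were called higher and 1, Epcam, was called lower. The 8 CM markers summed to 1203, 1244 and 1345 CPM and to 1405, 1546 and 1446 CPM, with 0 called higher and 1, Mesp1, called lower. The sums of the haemato-endothelial markers rose in replicate 3 in both sorted groups while those of the CM markers did not separate the replicates, and the part of such cells in the results below was not tested.

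The rise was not equal in the sorted groups. An interaction test, which asks whether the replicate 3 difference itself differs between Foxa2+ and Foxa2- CM, called 148 of 15284 genes (0.968%), of which 118 had the larger value in Foxa2- CM. DESeq2 called 9, and edgeR called 318 without Foxa2+ replicate 1 and 69 without Foxa2- replicate 1, so this count depends on the tool and on single libraries. Of the 26 haemato-endothelial genes tested, 10 were among the 148 and all 10 had the larger rise in Foxa2- CM, where the median log2 difference over the list was 1.46, against 0.63 in Foxa2+ CM. Tie1 rose by 1.84 in Foxa2+ CM and by 5.88 in Foxa2- CM (interaction adjusted p = 2.20e-06), and Cdh5 by 1.11 and 4.17 (interaction adjusted p = 1.50e-11). Tal1, Fli1, Runx1 and Sox7 were not among them (interaction adjusted p of 0.677, 1, 0.672 and 0.953).

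**Figure D3:**
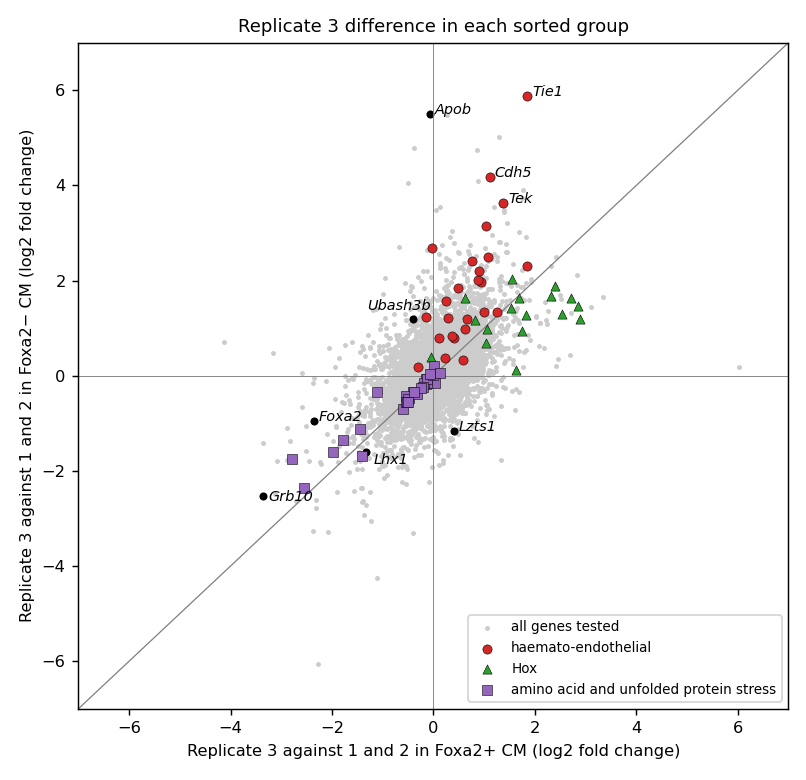
Log2 fold change of replicate 3 against replicates 1 and 2 in Foxa2+ CM (horizontal axis) and in Foxa2- CM (vertical axis) for all 15284 genes tested (grey), with haemato-endothelial (red circles), Hox (green triangles) and stress genes (purple squares) drawn over them and a line where both are equal. Endothelial genes such as Tie1 (1.84 and 5.88) lie above the line, Hox genes lie mostly at the upper right, and stress genes lie along the line from the centre to the lower left.

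Of 38 Hox genes, 17 passed the filter, and 14 of these were called higher and 0 lower (6.58% and 3.04% of all genes), with log2 differences of up to 2.04 and a median over the 17 of 1.49. Most are low, and with a mean of at least 50 counts as the filter 6 were called. The other 3 were Hoxb1 (0.59, adjusted p = 0.182), Hoxa13 (0.80, adjusted p = 0.0652) and Hoxd13 (0.32, adjusted p = 0.540). The called genes came from the A, B and D clusters, and no HoxC gene passed the filter. The replicate 3 library was the highest of its sorted group in all 14, as it was for nearly all genes called higher.

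Levels were much lower in Foxa2+ than in Foxa2- CM for most of these genes, and 5 of the 14 (Hoxa10, Hoxa11, Hoxb5, Hoxb8 and Hoxd8) were at or under the level of 3 counts in both Foxa2+ replicates 1 and 2, so for them the size of the difference rests on Foxa2- CM. Among 3' members, Hoxb2 was at 1.83, 2.66 and 7.73 CPM in Foxa2+ replicates 1, 2 and 3 and at 7.37, 6.43 and 13 CPM in Foxa2- CM (1.29 ± 0.20 SE, adjusted p = 0.00178). Hoxb4 (chr11:96318267-96321638) had the largest called difference, with 0.366, 0.289 and 1.75 CPM in Foxa2+ CM and 1.05, 1.67 and 4.85 CPM in Foxa2- CM (2.04 ± 0.27 SE, adjusted p = 0.000657). Further 5', Hoxb6 was at 6.44, 8.33 and 17.7 CPM, Hoxd9 at 5.51, 6.59 and 18.2 CPM and Hoxa11 at 2.11, 3.25 and 7.11 CPM in Foxa2- replicates 1, 2 and 3. In these genes Foxa2- replicate 3 exceeded both other Foxa2- libraries by at least the spread between them. In the Flk1+ high libraries Hoxd9 was at 0.439 and 3.15 CPM and Hoxa11 at 0 and 0.315 CPM, both below Foxa2- replicate 3, whereas Hoxb4 was at 2.01 and 10.5 CPM.

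Cdx2, a caudal homeobox factor that activates posterior Hox genes, rose with them, from 2.63 and 4.34 to 13.3 CPM in Foxa2+ CM and from 40.8 and 52.8 to 77.1 CPM in Foxa2- CM (1.14 ± 0.20 SE, adjusted p = 0.00385). Its rise was larger in Foxa2+ CM (interaction adjusted p = 0.00284). Its relative Cdx1 went the other way (-1.04 ± 0.29 SE, adjusted p = 0.0414). Of 15 retinoic acid genes tested, 3 were called higher (6.58% of all genes were), among them the synthetic enzyme Aldh1a2 (0.86) and the receptor Rarb (1.01), and 1 was called lower, the degrading enzyme Cyp26a1 (-0.32). The 3 rises became 1 without replicate 1 of either group, and the 1 fall became 2 without Foxa2+ replicate 2 and 0 without Foxa2+ replicate 1 or Foxa2- replicate 1 or 2.

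**Figure D4:**
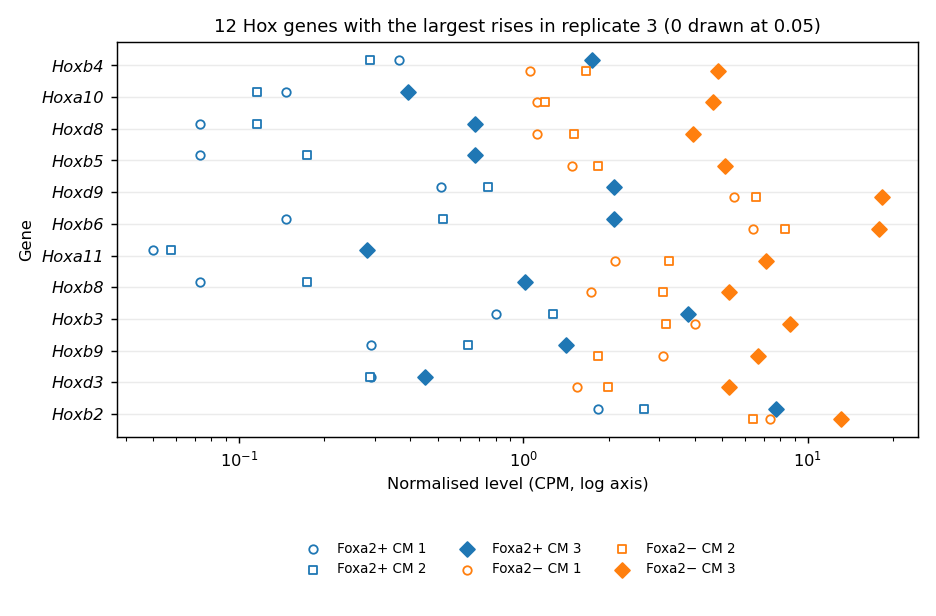
Normalised level (CPM, log axis) of the 12 Hox genes with the largest called rises in replicate 3 in each of the 6 CM libraries, with symbols as in the plot of haemato-endothelial genes and a level of 0 (Hoxa11 in Foxa2+ replicate 1) drawn at 0.05 CPM. Filled diamonds (replicate 3) lie to the right of the open symbols of the same colour in all rows, and for most genes Foxa2- CM (orange) lies to the right of Foxa2+ CM (blue).

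Of 28 regulators of lateral plate and cardiac mesoderm tested, 6 were called higher and 0 lower, against 6.58% and 3.04% of all genes, and 4 were called higher without Foxa2- replicate 1 or 2. Foxf1, a forkhead factor of splanchnic mesoderm, was at 26.2, 40.4 and 78.3 CPM in Foxa2+ replicates 1, 2 and 3 and at 84.9, 101 and 128 CPM in Foxa2- CM (0.84 ± 0.16 SE, adjusted p = 0.00495). Hand2, a bHLH factor of the right ventricle and second heart field, was at 15.9, 26.1 and 46.8 CPM and at 40.2, 45.9 and 64.1 CPM (0.86 ± 0.15 SE, adjusted p = 0.00360). Isl1, of the second heart field, was at 1.97, 3.01 and 4.68 CPM and at 16.1, 20.4 and 26.6 CPM (0.68 ± 0.17 SE, adjusted p = 0.0253). In all 3 the replicate 3 library was the highest of its sorted group. Tbx2, Meis1 and Smarcd3 were the others called, with log2 differences of 0.38, 0.69 and 0.98.

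Core cardiac factors did not pass the test, with Gata4 at -0.17 (adjusted p = 0.177), Gata6 at -0.20 (adjusted p = 0.0924), Nkx2-5 at -0.35 (adjusted p = 0.162) and Tbx5 at 0.56 (adjusted p = 0.240). Hand1, Tbx20 and Mef2c were also not called. Of 19 sarcomere and smooth muscle genes, 3 were called higher (15.8%, against 6.58% of all genes). These were Tagln (0.69) and Myl9 (0.89), both of smooth muscle, and Ryr2 (1.27), the calcium release channel of heart muscle. Tnnt2 gave -0.26 (adjusted p = 0.357) and Myl7 -0.48 (adjusted p = 0.242).

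Of 30 extracellular matrix genes tested, 13 were called higher and 0 lower, against 6.58% and 3.04% of all genes. This list, like the others, was chosen with earlier results of these data known, so its share is a description. Col1a1, the main chain of fibrillar collagen I (chr11:94936224-94953042), was at 22.7, 30.5 and 99.4 CPM in Foxa2+ replicates 1, 2 and 3 and at 79.4, 103 and 270.0 CPM in Foxa2- CM, and had the lowest p of all genes that rose (1.73 ± 0.11 SE, adjusted p = 9.88e-06). It was lower in the Flk1+ high libraries, at 10.1 and 23.2 CPM, than in any CM library but Foxa2+ replicate 1. Bgn, a small matrix proteoglycan, was at 1.10, 2.26 and 8.86 CPM and at 3.84, 3.89 and 11.6 CPM (1.94 ± 0.22 SE, adjusted p = 0.00026). Hapln1, the link protein of hyaluronan, was at 4.61, 7.75 and 21.5 CPM and at 1.92, 1.83 and 27.5 CPM (2.72 ± 0.33 SE, adjusted p = 0.000376), with 196 and 259 CPM in the Flk1+ high libraries. Laminin and basement membrane genes differed less, Lama4 by 0.76 and Col18a1 by 0.90, and Col4a1, Sparc and Nid2 were not called (0.06, -0.09 and -0.07). With DESeq2, 8 matrix genes were called higher, and without Foxa2- replicates 1, 2 and 3 in turn 6, 7 and 5 were.

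Other mesenchymal and surface genes stood among the named rises. Adamts2, which trims procollagen, rose by 1.56 and Pla2r1, a secreted phospholipase receptor, by 1.98, and neither was abundant in the Flk1+ high libraries (2.84 to 3.14 and 1.10 to 1.32 CPM). Svep1, a large matrix protein, was at 0.512, 1.45 and 3.67 CPM in Foxa2+ CM and at 2.54, 3.41 and 21.7 CPM in Foxa2- CM (2.55 ± 0.27 SE, adjusted p = 0.000159). Snai2, a zinc finger repressor of epithelial genes, rose by 2.07 (adjusted p = 0.000690), a call that was lost without Foxa2- replicate 3 (adjusted p = 0.0614), and Zeb1 and Zeb2 rose by 0.66 and 0.40. The rest of the 12 largest rises were Ctse (2.47), an intracellular protease, Lrrc8b (2.37), a subunit of a volume-regulated anion channel, Col8a2 (2.24), a short-chain collagen, and Slco2b1 (2.05), an organic anion transporter.

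Some genes of the primitive streak fell. Of 19 streak and nascent mesoderm genes, 6 were called lower (3.04% of all genes were) and 1, Cdx2, higher. Lhx1, a LIM homeobox factor of anterior streak (chr11:84518284-84525535), was at 49.1, 46.0 and 18.8 CPM in Foxa2+ replicates 1, 2 and 3 and at 158, 150.2 and 49.4 CPM in Foxa2- CM (-1.49 ± 0.08 SE, adjusted p = 2.00e-06). Mesp1, the bHLH factor that marks cells leaving the streak for the heart, was at 6.43, 7.06 and 3.72 CPM and at 62.0, 62.9 and 23.2 CPM (-1.24 ± 0.13 SE, adjusted p = 0.000132). Gsc, of the anterior streak, was at 65.2, 51.5 and 35.6 CPM and at 54.3, 44.5 and 28.8 CPM (-0.73 ± 0.11 SE, adjusted p = 0.00131). In each of these the replicate 3 library was the lowest of its group. T gave -0.18 (adjusted p = 0.139), Eomes -0.30 (adjusted p = 0.0812) and Mixl1 -0.27 (adjusted p = 0.0994), so the streak markers of widest use did not pass. The 6 calls became 11 without Foxa2+ replicate 2 and 3 without Foxa2- replicate 1 or 3.

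Of 17 Nodal and Activin genes, 6 were called lower and 0 higher, against 3.04% and 6.58% of all genes. Lhx1, Gsc and Fgf8 were shared with the streak list. Tdgf1, the Nodal co-receptor, was at 44.6, 43.6 and 27.7 CPM in Foxa2+ CM and at 98.5, 108 and 51.8 CPM in Foxa2- CM (-0.83 ± 0.08 SE, adjusted p = 0.000119). Otx2, an anterior homeobox factor, was at 43.9, 42.8 and 28.2 CPM and at 53.4, 44.4 and 15.5 CPM (-1.08 ± 0.17 SE, adjusted p = 0.00202), with the larger fall in Foxa2- CM (interaction adjusted p = 0.000798). Nodal itself (-0.05, adjusted p = 0.776) and the feedback gene Smad7 (0.09, adjusted p = 0.425) were not called. Of 19 pluripotency and epiblast genes, 4 were called lower (3.04% of all genes were) and 0 higher. Tdgf1 is a member of both this list and the Nodal list. Nanog was not called (-0.27, adjusted p = 0.330). Among the 4 were Fgf5 (-1.02) and Pou5f1 (-0.56), the latter at 34.7, 32.8 and 25.4 CPM and at 57.9, 63.2 and 36.6 CPM. Esrp1, a splicing factor of epithelial cells and among the 6 falls of lowest p, was at 34.3, 33.2 and 13.4 CPM and at 57.0, 52.9 and 24.0 CPM (-1.24 ± 0.09 SE, adjusted p = 2.48e-05). In each of these genes replicate 3 was the lowest library of both sorted groups.

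Among readouts of FGF and ERK signalling, Dusp6, the ERK phosphatase induced by ERK (chr10:99263231-99267489), was at 132, 129 and 71.1 CPM in Foxa2+ replicates 1, 2 and 3 and at 128, 128 and 73.8 CPM in Foxa2- CM (-0.83 ± 0.06 SE, adjusted p = 3.94e-05). Replicates 1 and 2 differed by at most a few CPM within each sorted group, and both replicate 3 libraries lay below all libraries of replicates 1 and 2. Spry4 gave -0.33 and Spry2, of the same family of FGF inhibitors, 0.24 in the opposite direction, and the ETS targets Etv4 and Etv5 were not called (-0.09 and -0.18). Over the 18 genes of the list, 4 were called lower and 2 higher, against 3.04% and 6.58% of all genes. The list shares Fgf8 with the streak and Nodal lists and Egr1 with the immediate early list. The 4 falls became 2 without Foxa2- replicate 3, and the 2 rises became 0 without Foxa2+ replicate 1 or 3 or Foxa2- replicate 1 or 2.

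Immediate early genes respond within minutes to growth factors and also to cell dissociation. Of 24 tested, 10 were called lower and 1, Socs3, higher, against 3.04% and 6.58% of all genes. Egr2 (chr10:67535475-67542188) was at 25.2, 39.1 and 6.49 CPM in Foxa2+ CM and at 18, 22.3 and 2.88 CPM in Foxa2- CM (-2.50 ± 0.21 SE, adjusted p = 3.97e-05). Egr1 was at 238, 231 and 174 CPM and at 213, 258 and 136 CPM (-0.60 ± 0.10 SE, adjusted p = 0.00223). Fos (-0.13, adjusted p = 0.472), Jun (0.27, adjusted p = 0.0921) and Atf3 (0.00, adjusted p = 0.996) were not called, so the fall was in the Egr genes, Zfp36 (-0.75), Junb (-0.44) and some others but not in all members. Without Foxa2- replicate 2, 6 were called lower.

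Wnt genes were split, with 7 of 18 called higher and 4 lower, against 6.58% and 3.04% of all genes. Lgr5, the R-spondin receptor, was at 23.8, 34.4 and 61.3 CPM in Foxa2+ CM and at 17.9, 25.1 and 55.3 CPM in Foxa2- CM (1.23 ± 0.14 SE, adjusted p = 0.000267), and the feedback inhibitor Nkd1 rose by 0.68. Axin2, a target used to read canonical Wnt signalling, gave 0.03 (adjusted p = 0.813). Sp5 and Sp8 fell by 0.53 and 0.94. Cdx1, Cdx2 and Sp5 are also members of the streak list, so they are counted in both lists. The 16 BMP genes tested held 2 calls, Id1 (-0.46) and Bmper (-0.21), or 12.5% lower against 3.04% of all genes. The 16 Notch genes held 3 in each direction (18.8%), with Hey2 at 0.99 and Dll3 at -1.09. These small counts depended on single libraries, the 7 Wnt rises becoming 3 without Foxa2- replicate 1, and the 4 Wnt falls 2 without Foxa2+ replicate 1 or Foxa2- replicate 2 and 0 without Foxa2- replicate 1 or 3. The 3 Notch falls became 1 without Foxa2+ replicate 1 and 0 without any 1 of the Foxa2- libraries, and the 3 Notch rises 1 without Foxa2- replicate 1 or 2.

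The list with the largest share of falls was that of the amino acid and unfolded protein stress responses. In these responses the eIF2 alpha kinases raise translation of the transcription factor Atf4, which induces amino acid transport and synthesis and, under prolonged stress, Ddit3, Trib3 and Chac1. All 31 genes passed the filter, and 17 were called lower and 0 higher, against 3.04% and 6.58% of all genes, with a median of -0.37. In all 17 the replicate 3 library was the lowest of its sorted group, as it was for nearly all genes called lower.

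Several of the fallen genes carry C/EBP-ATF response element (CARE) letters in their promoters, and the 4 with the largest falls are shown because all of them do. The windows of 300 bases, which start upstream of the RefSeq transcript and end just inside it (build GRCm38.p6), are written 5' to 3' on the gene's strand, and have matches to TGATGNAA on either strand in capitals.
Nupr1 (chr7:126625421-126625720, minus strand): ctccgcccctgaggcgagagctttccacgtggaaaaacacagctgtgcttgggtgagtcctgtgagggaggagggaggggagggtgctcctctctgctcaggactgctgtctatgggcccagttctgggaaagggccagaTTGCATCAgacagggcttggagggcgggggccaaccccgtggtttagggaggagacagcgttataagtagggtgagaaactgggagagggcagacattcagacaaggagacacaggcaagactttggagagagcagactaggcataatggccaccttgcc
Slc7a11 (chr3:50443564-50443863, minus strand): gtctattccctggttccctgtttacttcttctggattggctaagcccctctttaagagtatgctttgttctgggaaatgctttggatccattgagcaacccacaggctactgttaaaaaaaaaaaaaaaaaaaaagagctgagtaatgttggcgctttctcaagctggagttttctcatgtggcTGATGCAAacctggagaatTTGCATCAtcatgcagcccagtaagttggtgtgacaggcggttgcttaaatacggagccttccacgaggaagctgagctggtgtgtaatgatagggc
Chac1 (chr2:119350992-119351291, plus strand): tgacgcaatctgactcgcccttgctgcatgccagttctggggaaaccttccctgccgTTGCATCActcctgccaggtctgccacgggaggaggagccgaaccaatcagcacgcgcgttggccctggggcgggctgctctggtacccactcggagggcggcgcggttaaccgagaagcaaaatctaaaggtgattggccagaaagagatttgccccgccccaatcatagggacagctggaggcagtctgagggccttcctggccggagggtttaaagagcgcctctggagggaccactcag
Trib3 (chr2:152344011-152344310, minus strand): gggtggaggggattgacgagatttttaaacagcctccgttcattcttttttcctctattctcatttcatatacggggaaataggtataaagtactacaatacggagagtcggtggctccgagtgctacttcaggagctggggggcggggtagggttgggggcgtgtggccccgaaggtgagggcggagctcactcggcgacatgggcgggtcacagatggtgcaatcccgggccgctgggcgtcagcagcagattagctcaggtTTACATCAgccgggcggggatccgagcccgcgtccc
A promoter window was matched for 14 of the 17 fallen genes (none for Slc7a3, Slc7a5 and Aldh1l2), and 6 of the 14 held the letters, Asns and Herpud1 being the others. Of the members not called, 13 had a window and 2 (Atf3 and Vldlr) held them. Over all 32851 windows of this length the share was 3.97%, and 4.51% of genes had them in any window. The list was made of genes assigned to these responses, so its share of windows with the letters is not independent of that choice. No other motif was searched, and a match describes letters and not a bound site.

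Slc7a11, the cystine transporter whose window holds the letters 2 times, was at 13.4, 11.6 and 1.80 CPM in Foxa2+ replicates 1, 2 and 3 and at 8.61, 6.91 and 2.26 CPM in Foxa2- CM (-2.27 ± 0.24 SE, adjusted p = 0.000165). Chac1, which breaks down glutathione, was at 57.3, 44.7 and 13 CPM and at 57.9, 49.0 and 17.4 CPM (-1.78 ± 0.13 SE, adjusted p = 3.06e-05). Trib3, a pseudokinase that restrains Atf4, was at 59.8, 46.8 and 15.4 CPM and at 66.1, 48.7 and 22.2 CPM (-1.56 ± 0.15 SE, adjusted p = 9.35e-05). In these genes replicate 1 was above replicate 2 in both sorted groups, and replicate 3 was below both by more than that gap. Nupr1, a small stress-induced nuclear protein, had the largest fall of the list at a low level, with 3.73, 2.95 and 0.564 CPM in Foxa2+ CM and 2.17, 1.35 and 0.339 CPM in Foxa2- CM (-2.47 ± 0.34 SE, adjusted p = 0.000821).

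Amino acid genes of the same programme fell by less. Slc7a3, a cationic amino acid transporter, was at 89.9, 75.5 and 30.5 CPM and at 87.7, 70.7 and 36.1 CPM (-1.27 ± 0.11 SE, adjusted p = 4.79e-05), and Aldh1l2, a mitochondrial folate enzyme, fell by 1.55. The asparagine and serine synthesis genes Asns, Psat1, Psph and Phgdh fell by 0.47, 0.55, 0.53 and 0.36, and Atf4 itself by 0.35, from 141 and 121 to 104 CPM in Foxa2+ CM and from 125 and 140.2 to 101 CPM in Foxa2- CM (adjusted p = 0.0152). Since Atf4 is regulated mainly at translation, its RNA is only part of its output. Chaperone genes of the endoplasmic reticulum, the other arm of the list, were not called, with Hspa5 at -0.17 (adjusted p = 0.260), Hsp90b1 at -0.14 (adjusted p = 0.384) and Xbp1 at -0.02 (adjusted p = 0.879). In the other cell types Chac1 was at 9.78 and 7.45 CPM in endoderm and 20.3 and 29.9 CPM in the Flk1+ high libraries, and Trib3 at 16.0 and 15.3 CPM and 13.7 and 27.6 CPM. For both genes these levels were below those of all 4 libraries of replicates 1 and 2. Without the genes at 0.5 or more counts per exonic base, where removal of duplicate reads compresses levels, 11 of the remaining members were called lower.

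**Figure D5:**
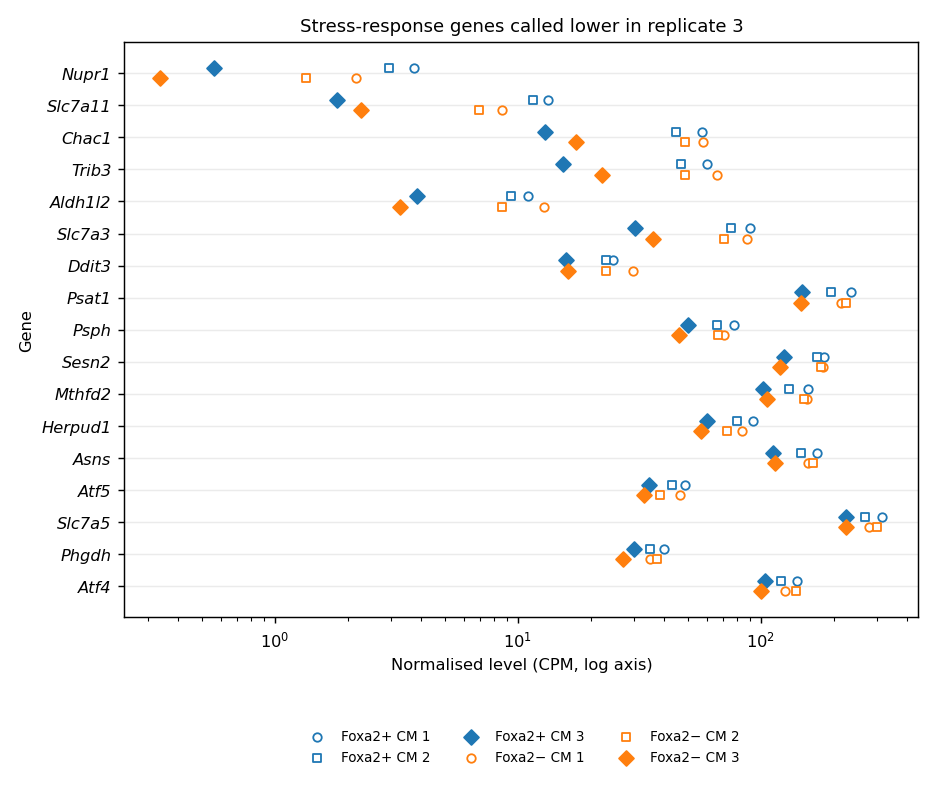
Normalised level (CPM, log axis) of the 17 amino acid and unfolded protein stress genes called lower in replicate 3, in each of the 6 CM libraries, with symbols as in the plot of haemato-endothelial genes. Filled diamonds (replicate 3) lie to the left of the open symbols in all rows, by the widest margin for Nupr1, Slc7a11 and Chac1, and Foxa2+ and Foxa2- CM lie close together.

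The largest fall of all named genes was that of Grb10, an imprinted adaptor that binds the insulin and IGF receptors and restrains growth (chr11:11930508-12038683). It was at 38.9, 43.9 and 4.06 CPM in Foxa2+ replicates 1, 2 and 3 and at 43.8, 43.7 and 7.39 CPM in Foxa2- CM, a log2 difference of -2.90 ± 0.16 SE (adjusted p = 2.00e-06). The 4 libraries of replicates 1 and 2 lay within 38.9 to 43.9 CPM and both replicate 3 libraries far below them. Endoderm was at 34.9 and 88.3 CPM and the Flk1+ high libraries at 22.7 and 12.8 CPM. Ikzf1, which lies nearby (chr11:11685003-11772926), was among the largest rises, and Ddc, an imprinted gene of the same region, was not called (0.26, adjusted p = 0.431).

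Most other imprinted genes were not called. Of 39 tested, 3 were called lower (7.69%, against 3.04% of all genes) and 4 higher (10.3%, against 6.58%), and the median was -0.03. The 4 rises became 7 without Foxa2+ replicate 2 and 2 without Foxa2- replicate 1. Cdkn1c, a cell cycle inhibitor expressed from the maternal allele, was at 20.1, 17.7 and 4.96 CPM in Foxa2+ CM and at 32.1, 31.7 and 15 CPM in Foxa2- CM (-1.41 ± 0.17 SE, adjusted p = 0.000311). Phlda2, from the same imprinted cluster, was at 34.3, 30.0 and 15.5 CPM and at 52.6, 54.7 and 29.9 CPM (-0.92 ± 0.10 SE, adjusted p = 0.000145). Igf2 (0.35, adjusted p = 0.101), H19 (0.37, adjusted p = 0.0641), Peg3 (-0.09, adjusted p = 0.667), Meg3 (-0.09, adjusted p = 0.572) and Mest (-0.10, adjusted p = 0.564) were not called. Magel2, Asb4 and Ndn rose by 0.57, 0.63 and 0.28, and Airn, an antisense transcript of Igf2r, by 0.93, with the limit that reads of overlapping transcripts could not be assigned by strand here.

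The remaining large falls were in genes of mixed role. Lrrc75aos2, an antisense transcript, gave -2.75 under the same limit. Fam129a, a stress-induced gene also known as Niban, was at 21, 18.3 and 5.36 CPM in Foxa2+ CM and at 16.0, 10.1 and 3.67 CPM in Foxa2- CM (-1.85 ± 0.20 SE, adjusted p = 0.000159). Kcnc1, a voltage-gated potassium channel, was at 27.0, 27.7 and 9.81 CPM and at 35.4, 28.9 and 11.3 CPM (-1.48 ± 0.12 SE, adjusted p = 3.97e-05). Elfn2 (-1.70), the neuronal pentraxin Nptx2 (-1.69), Sez6 (-1.67) and the peptide hormone Adm2 (-1.62) completed the 12 largest falls. That replicate 3 was the lowest in both groups is part of the rule that named the 12 largest falls.

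None of 29 DNA replication genes and none of 28 mitosis genes was called by edgeR or DESeq2, with 4 and 1 at an unadjusted edgeR p under 0.05 and medians of -0.09 and -0.03. Of all 15284 genes tested, 3690 had an unadjusted edgeR p under 0.05. Ribosomal protein genes had a median of -0.21, and their called falls were at most 0.61 in size. Of 82 tested, 0 were called higher (6.58% of all genes were) and 13 lower (15.9%, against 3.04% of all genes). That count was 0 without Foxa2- replicate 3, 3 without Foxa2- replicate 1, 2 without Foxa2- replicate 2, 4 without Foxa2+ replicate 1, 8 without Foxa2+ replicate 3 and 33 without Foxa2+ replicate 2. Among 36 hypoxia and glycolysis genes 6 were called lower (16.7%) and 2 higher (5.56%), and among 18 p53 targets 4 lower (22.2%) and 0 higher. Among 25 cholesterol synthesis genes 2 were called higher (8%) and 0 lower. Over all genes 3.04% were lower and 6.58% higher, so the rises in hypoxia and cholesterol genes were near that share. Of 22 histone genes tested 4 were called lower (18.2%, against 3.04% of all genes) and 0 higher, at low levels. Their median of -0.93 was larger in size than that of the other lists in this paragraph. These counts moved with single libraries. The 6 hypoxia falls became 11 without Foxa2+ replicate 2, 3 without Foxa2+ replicate 1 or Foxa2- replicate 1 and 2 without replicate 3 of either group. The 4 p53 falls became 2 without Foxa2- replicate 1 or 2 and 1 without Foxa2- replicate 3, and the cholesterol falls 5 without Foxa2+ replicate 2. The 4 histone falls became 8 without Foxa2+ replicate 3, 2 without Foxa2+ replicate 1, 0 without Foxa2- replicate 1 and 1 without Foxa2- replicate 3. No chromosome moved as a whole, since the medians per chromosome lay between -0.04 and 0.05.

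The contrast between the sorted groups was narrower in the replicate 3 pair. With replicates 1 and 2 alone, 972 of 15093 genes (6.44%) differed by at least 2-fold between Foxa2+ and Foxa2- CM. For the 496 of these that were higher in Foxa2+ CM, the median log2 difference was 1.21 in pair 1, 1.53 in pair 2 and 0.79 in pair 3, and 434 kept their direction in pair 3. For the 476 that were lower the medians were -1.59, -1.33 and -1.05, and 458 kept their direction. The genes were chosen on pairs 1 and 2, which by itself makes those pairs look larger, so the medians are a description and the narrowing was not tested.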

How the data were processed

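RNA of sorted cells was made into TruSeq v2 libraries and sequenced as 50 nt single-end reads. Per the labels and methods, the authors aligned reads to mm10 with STAR 2.5.0a, removed duplicate reads with Picard and deposited whole-number counts per gene from HTSeq 0.6.0, without normalization. The strand setting is not given in the sources used here, and removal of duplicates compresses highly covered genes.

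The counts of the 6 CM libraries were filtered with filterByExpr, scaled by TMM and tested with edgeR 4.0.16 (quasi-likelihood, R 4.3.3) with the sorted group as a term and a coefficient for replicate 3. A gene was called at a Benjamini-Hochberg adjusted p under 0.05 over all 15284 genes. The fit left 3 residual degrees of freedom (2 for the interaction), and the SE follows from the same statistic as p. CPM use 1 TMM scale over all 10 libraries. DESeq2 1.42.0 was an alternative. Of 38924 gene rows, 37607 matched GENCODE M21, which gave coordinates. The scripts were tested on simulated data.

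Members, gene lists and tests were chosen with earlier results of these data known. Named genes were the 12 largest rises and falls (mean of at least 50 counts, beyond both other replicates in both groups), the 6 lowest p in each direction, the 5 lowest interaction p, the gate genes and, per list, up to 8 called and its defining members. Promoters were RefSeq windows. Some genes that the rule names are not reported here. The replicate number was checked for pairing by the correlation of deviations of same-numbered libraries (0.480, 0.0855 and 0.580 for numbers 1, 2 and 3). By the smallest of these, that of number 2, the numbers were not taken to pair the libraries. The value of number 3 was the largest, so this choice does not show that the replicate 3 libraries are unrelated.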

Additional observations from a re-analysis of the deposited data

Results flagged for a closer look

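For 9 named genes the replicate 3 difference itself differed between the sorted groups by the interaction test of edgeR (adjusted p under 0.05, Foxa2+ minus Foxa2- values on the log2 scale). Apob, Cdh5, Cubn, Ubash3b and Lzts1 were the 5 named for the lowest interaction p, so their passing follows from the naming. Over all genes the test called 148 of 15284 (0.968%), and DESeq2 called 9 of all genes. Apob, an apolipoprotein of yolk sac and liver, was at 3.58, 21.4 and 12.2 CPM in Foxa2+ replicates 1, 2 and 3 and at 0.557, 0.159 and 17.4 CPM in Foxa2- replicates 1, 2 and 3, an interaction of -5.59. Cubn, an endocytic receptor of visceral endoderm and kidney, was at 5.48, 12 and 9.76 CPM and at 0.991, 0.873 and 10.8 CPM, an interaction of -3.41. Cubn was at 2.14 and 7.70 CPM in endoderm and at 15.4 and 10.9 CPM in the Flk1+ high libraries. In both genes Foxa2- replicate 3 was within the range of the Foxa2+ libraries, and the other Foxa2- libraries were near 0 or 1 CPM, and neither was called in the comparison over both groups.

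Among blood and vessel genes the interaction was -4.03 for Tie1, -3.06 for Cdh5, -2.26 for Tek and -2.07 for Ikzf1, and for the matrix gene Hapln1 it was -2.13, all with the larger rise in Foxa2- CM. Ubash3b, a phosphatase of blood cell signalling, was at 49.1, 51.6 and 38.2 CPM in Foxa2+ CM and at 11.7, 11 and 25.3 CPM in Foxa2- CM (-1.59), and Lzts1 was at 13.6, 17.6 and 20.8 CPM and at 71.2, 57.9 and 28.3 CPM (1.57). In Ubash3b and Lzts1 the replicate 3 libraries of the 2 sorted groups moved in opposite directions and toward each other. Each interaction rests on 1 replicate 3 library per sorted group.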

How the results depend on the processing

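The 1471 calls became 2428 with no filter on low counts, 12 with no sorted group term, 96 with all 10 libraries in 1 model, 697 within Foxa2+ CM alone and 181 when tested against a 1.5-fold limit, and they ranged from 693 to 3087 over fits that left out 1 library or 1 replicate number. The 827 calls of at least 1.5-fold became 10 with no sorted group term and 85 with all libraries (512 to 1142 on leaving out), and the 422 of at least 2-fold became 646 without the filter, 234 at a mean of at least 50 counts, 7 with no sorted group term and 69 with all libraries (273 to 642). The 148 interaction calls became 9 with DESeq2 and 84 with RLE size factors (69 to 318). In the fits compared gene by gene, every call shared with the 1471 had the same direction. DESeq2 (1091), RLE size factors (1348) and removal of a GC trend (1433) stayed within 1.5 times, as did 3 alternatives chosen after seeing the data: a filter that also uses the replicate number (1537), thinned libraries (1378) and omission of genes at 0.5 or more counts per exonic base (1388). With the replicate block (replicate number as a factor of 3 levels, replicate 3 against the mean of 1 and 2) 1654 genes were called, and 1448 of the 1471 were among them, although the replicate numbers were not taken to pair the samples.

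Of the named genes, the difference changed sign on leaving out 1 library or replicate number for Pdgfra (-0.18 to 0.24, values -0.02, -0.18 and -0.01 among them), Apob (-0.0747 to 5.51), Ubash3b (-0.40 to 1.18) and Lzts1 (-1.17 to 0.40), none of which was called with all 6 libraries. Apob, Ubash3b and Lzts1 were called in some of these fits. Epcam (-0.44) was no longer called without Foxa2- replicate 1 or 3. The cause of these changes was not tested. Library depth was higher in both replicate 3 libraries, and thinning to the shallowest library gave 1278 of the 1471 calls again. At this depth no HoxC gene and neither listed embryonic globin passed the filter.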

Other observations

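Some genes of the endoderm list behaved differently in the replicate 3 libraries of the sorted groups. Of 21 tested, 4 were called lower and 1 higher over both groups, against 3.04% and 6.58% of all genes. The interaction test called 5 of them (Apob, Hnf4a, Ttr, Sox17 and Cldn6), against 0.968% of all genes, each with the larger value in Foxa2- CM. The 1 rise became 8 without Foxa2+ replicate 3, 4 without Foxa2+ replicate 2 and 0 without Foxa2- replicate 3. Sox17, an endoderm and endothelial factor, was at 27.7, 23.3 and 19.8 CPM in Foxa2+ replicates 1, 2 and 3 and at 4.64, 3.18 and 8.58 CPM in Foxa2- CM, with 105 and 177 CPM in endoderm. Hnf4a, a nuclear receptor of visceral endoderm and liver, was at 1.24, 1.79 and 1.18 CPM and at 0.0619, 0.0794 and 2.09 CPM, and Ttr, a serum transport protein, at 0.585, 1.22 and 1.13 CPM and at 0.0619, 0 and 1.86 CPM. Endoderm held far more Sox17 than any CM library, but not more Ttr (0.373 and 1.76 CPM). Apob was not particular to endoderm, at 5.31 and 19.7 CPM there and at 8.97 and 16.2 CPM in the Flk1+ high libraries. Krt19 (-0.55) and Gsc (-0.73) fell in both groups, and Hhex (0.59), which is also a gene of blood and endothelium, rose. The 10 endoderm markers summed to 113, 118 and 95.9 CPM in Foxa2+ replicates 1, 2 and 3, with replicate 3 the lowest, and to 82.0, 76.0 and 87.0 CPM in Foxa2- CM, with replicate 3 the highest, and their part in these values was not tested.

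Across genes, which are not independent replicates, the replicate 3 difference was related weakly to exonic length (Spearman 0.222 over 15150 genes) and less to GC content (-0.0549) and mean counts (-0.0499). The share of reads on ribosomal protein genes was 0.327% and 0.329% in the replicate 3 libraries and between 0.335% and 0.386% in the other CM libraries, and the share on histone genes 0.0199% and 0.0176% against 0.0213% to 0.0267%. Among 1971 genes at 0.5 or more counts per exonic base, 14 were called higher and 41 lower. Both shares were below those over all genes tested (6.58% higher and 3.04% lower).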
